A study of Homo sapiens with 6 samples.

Results

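The 9 genes described here serve antigen presentation by MHC class I: the heavy chains HLA-B, HLA-C and HLA-E, the light chain B2M, the peptide transporter and loading genes TAP1, TAP2 and TAPBP, the immunoproteasome subunit PSMB9 and the regulator NLRC5. They were chosen by name and matched to the Ensembl identifiers of the primary assembly, and all 9 were found among the 62754 genes of the deposited count table. RNA-seq libraries came from 3 control and 3 FAM60A-knockout samples of HEK293, a line derived from human embryonic kidney. The sample titles name HEK293, whereas the cell line label names HEK293T, a derivative that carries the SV40 large T antigen. FAM60A, a subunit of the Sin3/HDAC corepressor, was disrupted with Cas9 and guide RNAs against 3 regions of the gene, and puromycin selection then gave a pool of knockout cells rather than a clone. Controls were labelled only as control, so neither a vector nor selection is stated for them, and all cells grew in the same serum-containing medium, for which no cytokine is named.

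MHC class I molecules carry peptides from inside the cell to its surface, where CD8+ T cells and natural killer cells read them. Proteasomes, in which PSMB9 can take the place of PSMB6, cut the peptides, the TAP1/TAP2 transporter moves them into the endoplasmic reticulum, and tapasin (TAPBP) helps load them onto a heavy chain paired with beta-2-microglobulin (B2M). NLRC5 is the class I transactivator, and interferons and NF-κB are known to raise many of these genes through short promoter elements. HEK293 cells are not professional antigen-presenting cells.

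Control replicate 3 stood apart from the other controls, so each of the 9 genes is given with and without it. Of the 20992 genes tested, 4834 to 4963 were at least 2-fold apart between control replicate 3 and replicates 1 or 2, against 300 between control replicates 1 and 2. Control replicate 3 and the knockout libraries were at least 2-fold apart in 2932 to 3357 genes, and the knockout libraries among themselves in 351 to 453. Total counts lay between 88361827 and 93346824 per library. FAM60A, under its current symbol SINHCAF, had 10165 to 12792 counts in the controls against 5449 to 5793 in the knockout libraries, a log2 fold change of -0.85 (SE 0.11, edgeR adjusted p = 0.00863), which lost its call without knockout replicate 1, 2 or 3 (adjusted p = 0.0719, 0.0571 and 0.0736). Of 8 leukocyte markers, PTPRC had 0 to 9 counts per library and only CD14 and ITGAX passed the filter on low counts, and the summed level of the 8 was 0.435 to 2.55 CPM in control against 0.521 to 0.672 CPM in knockout libraries. The 7 markers of HEK293 were all above the filter, with LHX1 and NEFM lower in the knockout (adjusted p = 0.0354 and 0.0493) and a summed level of 549 to 847 CPM in control against 411 to 493 CPM in knockout libraries. The 4 fibroblast markers summed to 19.7 to 28.6 CPM in control against 23.3 to 23.7 CPM in knockout libraries, with DCN and LUM higher and COL1A1 lower in the knockout by the edgeR test (adjusted p = 0.00373, 0.0463 and 0.0361) and COL1A2 at no more than 2 counts. The 2 endothelial markers found, VWF and CDH5, summed to 0.658 to 0.735 CPM in control against 0.0475 to 0.239 CPM in knockout libraries, with VWF lower (adjusted p = 0.0241). The part of these differences in the class I results was not tested.

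In the RefSeq annotation of GRCh38.p14, 7 of the 9 genes lie on chromosome 6. HLA-E spans chr6:30489509-30494194, HLA-C chr6:31268749-31272092 and HLA-B chr6:31353875-31357179. TAP2 spans chr6:32821831-32838739 and TAP1 chr6:32845209-32853704, and PSMB9 (chr6:32854192-32859851) starts on the opposite strand with 487 bases between its start and that of TAP1. TAPBP spans chr6:33299694-33314078, B2M chr15:44711517-44718145 and NLRC5 chr16:56989557-57083520. RefSeq promoter windows of 250 bases before to 50 bases after the gene start were at hand for 7 members, with HLA-E and NLRC5 the exceptions. The 200 bases before the start are printed for HLA-B and HLA-C, whose RNA was lower than in control replicates 1 and 2. They are also printed for the 4 genes called higher with all 6 libraries, so that the elements of both groups can be set side by side. Capitals mark matches, on either strand, to the interferon-stimulated response element in a short form (GAANNGAAA) or a full form (GAAA, any pair of bases, then GAAA again), to the κB consensus, to the Y box (ATTGG) and to the cyclic AMP response element core (TGACG). The sequences run 5′ to 3′ on the strand of the gene.
HLA-B (chr6:31357180-31357379, minus strand): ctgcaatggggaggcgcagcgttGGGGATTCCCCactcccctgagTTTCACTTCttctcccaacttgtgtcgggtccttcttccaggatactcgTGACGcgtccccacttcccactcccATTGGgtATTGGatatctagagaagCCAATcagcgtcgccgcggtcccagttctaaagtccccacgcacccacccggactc
HLA-C (chr6:31272093-31272292, minus strand): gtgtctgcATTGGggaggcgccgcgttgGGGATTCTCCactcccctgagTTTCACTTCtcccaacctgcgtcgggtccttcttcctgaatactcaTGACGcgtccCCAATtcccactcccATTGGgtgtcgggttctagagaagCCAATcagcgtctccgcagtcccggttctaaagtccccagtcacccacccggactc
B2M (chr15:44711317-44711516, plus strand): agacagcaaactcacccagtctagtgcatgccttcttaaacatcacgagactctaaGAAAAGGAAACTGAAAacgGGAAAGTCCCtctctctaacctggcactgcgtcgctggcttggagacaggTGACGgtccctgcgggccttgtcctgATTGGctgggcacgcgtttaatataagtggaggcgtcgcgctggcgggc
TAP1 (chr6:32853705-32853904, minus strand): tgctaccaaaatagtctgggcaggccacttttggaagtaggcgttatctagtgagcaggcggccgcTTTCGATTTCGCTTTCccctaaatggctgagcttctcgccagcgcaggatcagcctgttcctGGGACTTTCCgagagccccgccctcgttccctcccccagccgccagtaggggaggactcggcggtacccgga
TAP2 (chr6:32838740-32838939, minus strand): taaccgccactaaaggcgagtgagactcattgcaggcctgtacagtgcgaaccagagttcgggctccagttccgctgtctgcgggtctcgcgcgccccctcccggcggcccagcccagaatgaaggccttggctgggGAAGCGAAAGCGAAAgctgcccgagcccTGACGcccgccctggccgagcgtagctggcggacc
TAPBP (chr6:33314079-33314278, minus strand): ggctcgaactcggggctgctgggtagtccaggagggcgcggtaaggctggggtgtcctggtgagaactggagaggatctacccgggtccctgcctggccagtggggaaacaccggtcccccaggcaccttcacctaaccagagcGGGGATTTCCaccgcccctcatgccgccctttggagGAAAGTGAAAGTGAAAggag

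HLA-B and HLA-C carried, in the same order, a κB match, a short-form response element, TGACG and ATTGG, with further ATTGG matches, and neither held the full form. B2M, TAP1, TAP2 and TAPBP each held the full form, TAP2 with an overlapping short-form match. Elements of HLA-B and HLA-C were found in these genes too. κB matches were held by B2M, TAP1 and TAPBP, TGACG by B2M and TAP2, and ATTGG by B2M and, outside the printed bases, by TAP1. The full form was chosen as a pattern after these sequences were seen. Its presence in the genes called higher and its absence from HLA-B and HLA-C are therefore no test of a difference, also beside its share among all windows. In B2M, TAP1 and TAPBP the full form occurred as 2 overlapping matches, at -144 to -129 in B2M, -134 to -119 in TAP1 and -20 to -5 in TAPBP, counted from the start. PSMB9, whose knockout libraries also lay above all controls, held TGACG and ATTGG in its window without a κB or response-element match. The second RefSeq window of TAP1 held none of these patterns. Among 35116 RefSeq promoter windows of the same 300 bases, 3.57% held the full form, 7.66% the short form, 5.91% the κB consensus, 34.6% ATTGG and 24.6% TGACG. These matches describe letters in the reference genome and no binding was measured.

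Levels in CPM (reads per library scaled by edgeR's TMM factors) divided the 9 genes into 3 patterns. B2M and the peptide transporter and loading genes rose in the knockout over every control. The heavy chains were lower than in control replicates 1 and 2, while control replicate 3 lay at or under the knockout level. PSMB9 and NLRC5 were higher than in control replicates 1 and 2, with control replicate 3 near the knockout level. By edgeR's quasi-likelihood test with Benjamini-Hochberg adjustment, 4 of the 9 were called higher and 0 lower at an adjusted p of at most 0.05. Of all genes 16.6% were called, 7.96% as higher and 8.67% as lower. An unadjusted p under 0.05 was found in 6 of the 9 members and in 7249 of the 20992 genes tested. With library sizes alone, without TMM, 31.6% of all calls were higher in place of 47.9%, and the members' calls stayed at 4 higher and 0 lower. The median log2 fold change was 0.69 over the members and -0.0081 over all genes tested, and no member passed the threshold that also asks for at least a 2-fold change, which 7.06% of all genes passed. Without control replicate 3 the same test called 6 members higher and 3 lower, but 65.6% of all genes were then called, 32.4% as higher and 33.2% as lower. RNA from bulk cultures cannot tell a change in the share of cells from a change in the RNA per cell.

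**Figure D1:**
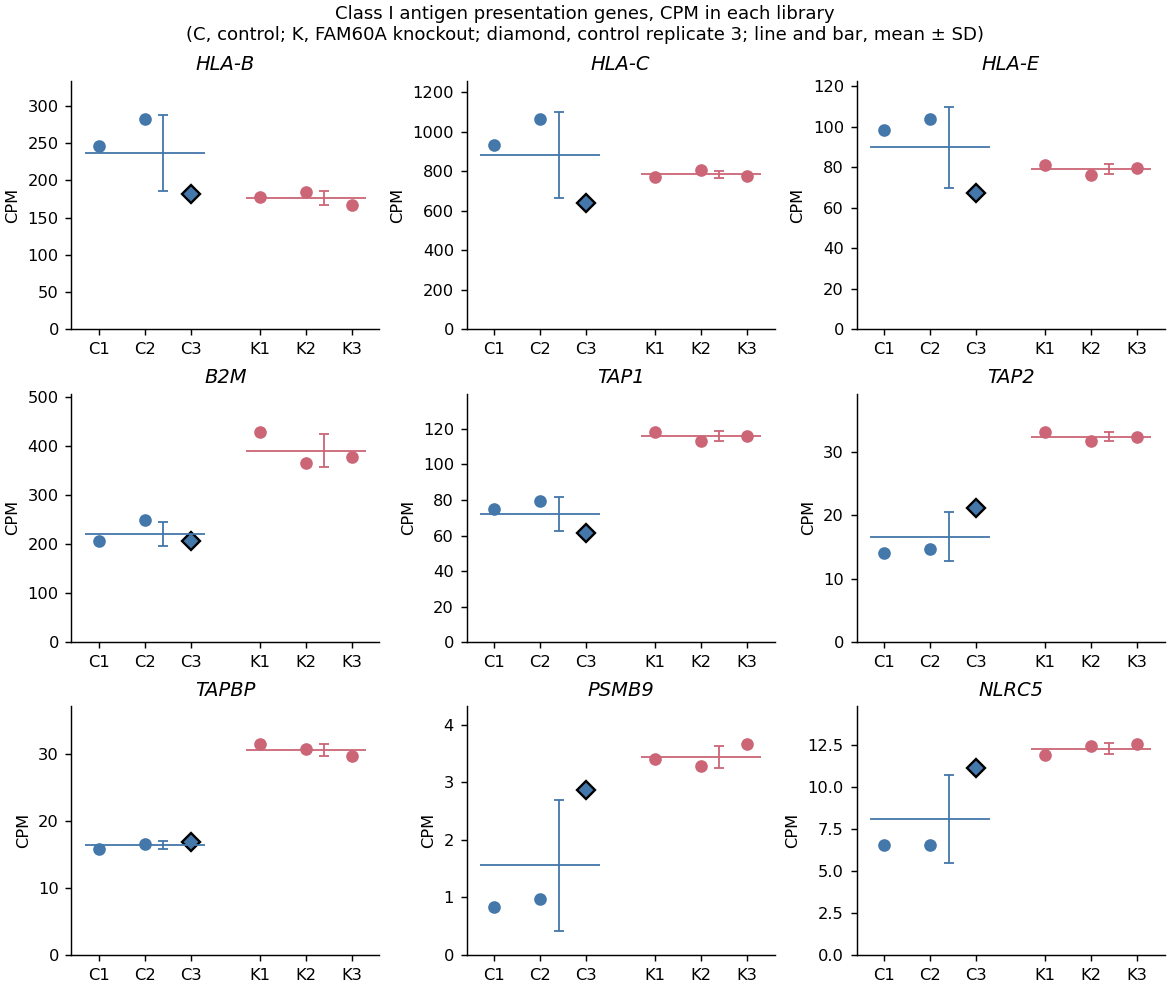
CPM (TMM-scaled) of each of the 9 genes in the 3 control (C1 to C3, blue) and 3 knockout libraries (K1 to K3, red), each panel on its own linear axis from 0; the diamond is control replicate 3, the horizontal lines are group means and the bars are SD (n = 3). The knockout libraries lie above all controls for B2M, TAP1, TAP2, TAPBP, PSMB9 and NLRC5, and control replicate 3 lies under all knockout libraries for HLA-C and HLA-E.

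B2M encodes the light chain of class I molecules, with which the heavy chains pair. Its level was 206.8, 249.8 and 206.3 CPM in control replicates 1, 2 and 3 and 429.8, 365.7 and 377.6 CPM in knockout replicates 1, 2 and 3. All knockout libraries were above all controls, and control replicate 3 stood beside control replicate 1. The means were 221 ± 25 and 391 ± 34.1 CPM (SD, n = 3), and the log2 fold change was 0.82 (SE 0.12, edgeR adjusted p = 0.0111), or 0.74 without control replicate 3 (adjusted p = 5.71e-07). The edgeR adjusted p was 0.0524, 0.0756, 0.0524 and 0.0727 without control replicate 1 or knockout replicate 1, 2 or 3, respectively.

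TAP1 and TAP2 encode the subunits of the peptide transporter. TAP1 stood at 74.73, 79.68 and 61.17 CPM in the controls against 118.5, 113.1 and 116.1 CPM in the knockout libraries. The groups did not overlap, and control replicate 3 was the lowest library. TAP1 rose by a log2 fold change of 0.69 (SE 0.12, edgeR adjusted p = 0.016), from 71.9 ± 9.58 to 116 ± 2.69 CPM. TAP2 stood at 14.13, 14.66 and 21.14 CPM in the controls against 33.22, 31.75 and 32.34 CPM in the knockout libraries. Here control replicate 3 was the highest control, and on the log2 scale it lay 47% of the way from control replicates 1 and 2 to the knockout mean. TAP2 rose by a log2 fold change of 0.96 (SE 0.18, edgeR adjusted p = 0.0188), from 16.6 ± 3.9 to 32.4 ± 0.739 CPM. Without control replicate 3 the log2 fold changes were 0.56 for TAP1 and 1.14 for TAP2. The other genes annotated over exon bases of TAP1 (14.2% of them) or TAP2 (19.5%) had at most 9 counts in any library. Whether TAP1 or TAP2 lost reads over these bases cannot be seen from such counts. For TAP1 the edgeR adjusted p passed 0.05 without control replicate 1 (0.0628) or knockout replicate 1, 2 or 3 (0.0931, 0.0693 and 0.0877). For TAP2 it did so without control replicate 1 or 2 (0.0596 and 0.0717) or knockout replicate 1, 2 or 3 (0.104, 0.0798 and 0.0961).

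TAPBP encodes tapasin, which bridges the transporter and the empty class I molecule. Its level was 15.74, 16.61 and 16.89 CPM in the controls against 31.43, 30.81 and 29.66 CPM in the knockout libraries. Relative to its mean it had the smallest SD of the 9 genes among the controls, replicate 3 included, and all knockout libraries were above them. The means were 16.4 ± 0.602 and 30.6 ± 0.9 CPM, a log2 fold change of 0.90 (SE 0.10, edgeR adjusted p = 0.00552; 0.89 without control replicate 3, adjusted p = 3.14e-09). The edgeR adjusted p was 0.0565 and 0.0514 without knockout replicate 1 or 3. Of its annotated exon bases, 21% are shared with a lncRNA gene on the opposite strand (ENSG00000289100), which had 63 to 131 counts in the controls against 37 to 54 in the knockout libraries, against 1530 to 1632 and 2619 to 2703 counts for TAPBP. The libraries were made strand-specific, and whether the counting used the strand is not given in the sources used here.

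The heavy chains HLA-B and HLA-C present peptides to T cells and are ligands of killer-cell receptors, and HLA-E presents signal peptides of other heavy chains to the CD94/NKG2 receptors. HLA-C was the most abundant, at 934.7, 1065 and 641.6 CPM in the controls against 773, 804.7 and 773.4 CPM in the knockout libraries. Control replicates 1 and 2 lay above all knockout libraries and control replicate 3 below them. HLA-B stood at 246.7, 282.7 and 182.2 CPM in the controls against 177.5, 185 and 167.1 CPM in the knockout libraries, with control replicate 3 inside the knockout range. HLA-E stood at 98.51, 104 and 67.14 CPM in the controls against 80.98, 76.39 and 79.92 CPM in the knockout libraries, again with control replicate 3 as the lowest library.

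With all 6 libraries none of the 3 heavy chains was called. The log2 fold changes were -0.43 for HLA-B (SE 0.17, edgeR adjusted p = 0.129), -0.17 for HLA-C (SE 0.19, adjusted p = 0.566) and -0.18 for HLA-E (SE 0.17, adjusted p = 0.485). Without control replicate 3 all 3 were called lower, with log2 fold changes of -0.62 for HLA-B (edgeR adjusted p = 9.54e-07), -0.38 for HLA-C (0.000571) and -0.39 for HLA-E (1e-04). Against control replicates 1 and 2 alone, knockout libraries lay below without overlap in 35.8% of all genes tested. The heavy chain genes are close paralogs, so the split of reads between them depends on the counting, and their sum was taken as well. HLA-B, HLA-C and HLA-E together came to 1280, 1450 and 891 CPM in the controls against 1030, 1070 and 1020 CPM in the knockout libraries. The sum was again highest in control replicates 1 and 2 and lowest in control replicate 3. Pseudogenes that share annotated exon bases with HLA-B, up to 30.7% of them, had at most 3 counts in any library. How reads over shared bases were counted is not given, so these counts cannot show whether HLA-B lost reads.

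HLA-F, a non-classical heavy chain that is not a member, had a log2 fold change of 0.12 (SE 0.10, adjusted p = 0.448), and HLA-G was listed with at most 1 count in any library.

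The ratio of summed HLA-B, HLA-C and HLA-E RNA to B2M RNA was lower in every knockout library than in every control. Summed HLA-B, HLA-C and HLA-E reads were 6.19, 5.81 and 4.32 times those of B2M in the controls against 2.4, 2.91 and 2.7 times in the knockout libraries. The groups did not overlap, and control replicate 3 lay between the other controls and the knockout. B2M alone already separated the groups, at 206.3 to 249.8 CPM in the controls against 365.7 to 429.8 CPM in the knockout libraries. The heavy chain sum overlapped, at 891 to 1450 against 1020 to 1070 CPM. How often ratios of other genes separate the groups was not computed. The mean ratio was 5.44 ± 0.989 in control against 2.67 ± 0.259 in knockout libraries (SD, n = 3). The heavy chains also differed among themselves: HLA-C over HLA-B was 3.79, 3.77 and 3.52 in the controls against 4.36, 4.35 and 4.63 in the knockout libraries. These ratios use no scaling between libraries, and no test was run on them, since they combine genes chosen with earlier results known.

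**Figure D2:**
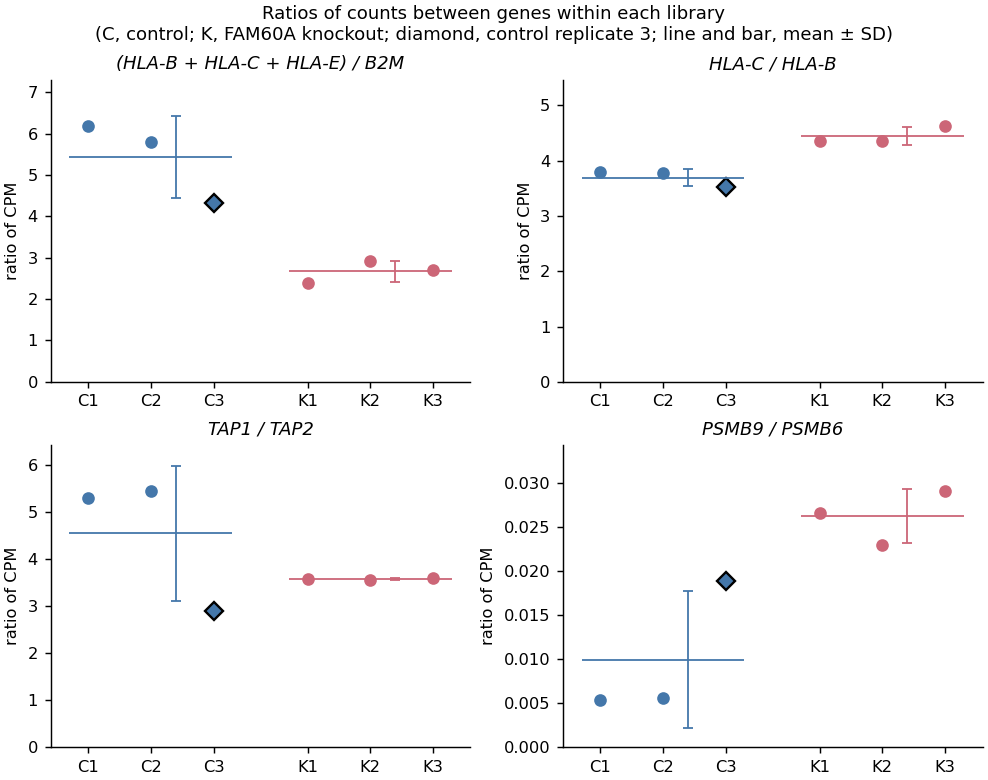
Ratios of CPM between genes within each of the 3 control (C1 to C3, blue) and 3 knockout libraries (K1 to K3, red) on linear axes from 0, with group means as lines and SD as bars (n = 3) and control replicate 3 as a diamond. The ratio of summed HLA-B, HLA-C and HLA-E to B2M is 4.32 to 6.19 in the controls against 2.4 to 2.91 in the knockout libraries. The TAP1 over TAP2 ratio of control replicate 3 (2.89) lies below all other libraries.

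PSMB9 encodes the interferon-inducible subunit that replaces PSMB6 in the immunoproteasome and shapes which peptides are cut. Its level was low, at 0.833, 0.968 and 2.867 CPM in the controls against 3.396, 3.283 and 3.657 CPM in the knockout libraries, or 81, 93 and 277 against 286, 288 and 323 counts. The groups did not overlap, but control replicate 3 lay close under the knockout libraries, 86% of the way from control replicates 1 and 2 on the log2 scale. The log2 fold change was 1.15 (SE 0.49, edgeR adjusted p = 0.152), and 1.90 without control replicate 3 (adjusted p = 3.25e-10), the largest change of the 9 genes in that fit. PSMB9 over PSMB6, the constitutive subunit, was 0.00533, 0.00559 and 0.0189 in the controls against 0.0266, 0.023 and 0.0291 in the knockout libraries. PSMB9 reads therefore came to no more than 0.0291 of those of PSMB6 in any library.

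NLRC5 binds no DNA by itself and acts with the factors that sit on the X and Y boxes of class I promoters. It stood at 6.552, 6.558 and 11.1 CPM in the controls against 11.87, 12.42 and 12.52 CPM in the knockout libraries. Control replicates 1 and 2 were nearly equal, and control replicate 3 lay 84% of the way to the knockout mean, just under the lowest knockout library. The log2 fold change was 0.61 (SE 0.24, edgeR adjusted p = 0.129), and 0.87 without control replicate 3 (adjusted p = 3.39e-08). Against control replicates 1 and 2 alone, 39.8% of all genes tested lay higher without overlap. PSMB9 and NLRC5 are among the 6 members whose knockout libraries lay above all 3 controls, an arrangement found in 21.5% of all genes tested.

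**Figure D3:**
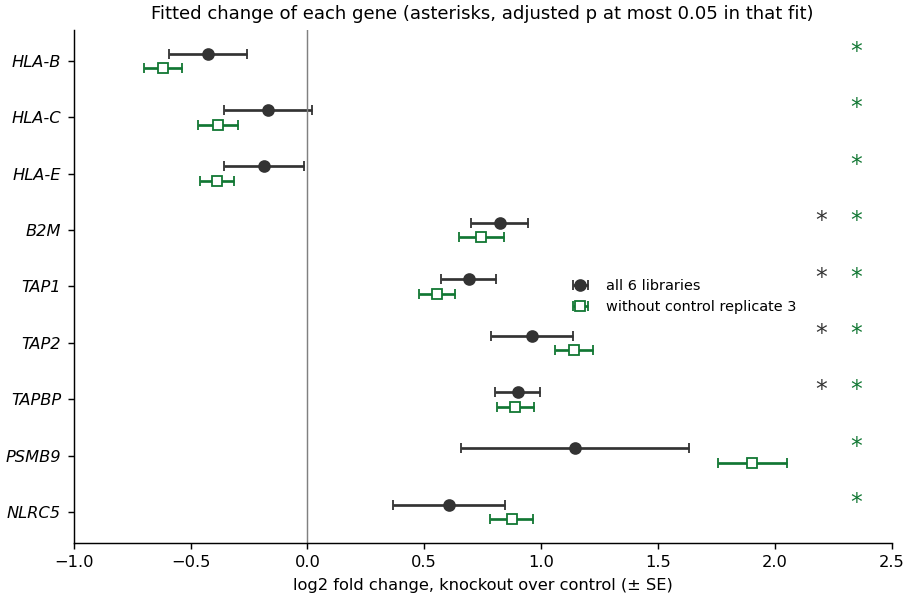
Log2 fold change of knockout over control from edgeR for each of the 9 genes (bars, SE), with all 6 libraries (filled circles) and without control replicate 3 (open squares); asterisks mark an adjusted p of at most 0.05 in the fit of their colour. B2M, TAP1, TAP2 and TAPBP are marked in both fits, and the heavy chains, PSMB9 and NLRC5 only without control replicate 3.

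The position of control replicate 3 split the members. On the log2 scale from control replicates 1 and 2 (0%) to the knockout mean (100%), it lay at 6.8% for TAPBP, -18% for B2M and -57% for TAP1, on the side of the controls or beyond it. It lay at 47% for TAP2, and at 84% for NLRC5, 86% for PSMB9 and 92% for HLA-B. For HLA-E and HLA-C it lay beyond the knockout mean, at 166% and 183%. In all, 5 of 9 members were nearer to the knockout in control replicate 3. The share was 62.8% among 13668 of the genes called without that library, those also tested with all 6 libraries and with a position that could be computed. The ratio of TAP1 to TAP2 shows the split within the transporter, at 5.29, 5.44 and 2.89 in the controls against 3.57, 3.56 and 3.59 in the knockout libraries.

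Per kilobase of annotated exon, HLA-C was the most abundant member in both groups, at a mean of 351 RPKM in control against 313 RPKM in knockout libraries, followed by B2M at 70.8 and 125 RPKM. HLA-B (51.3 and 38.2 RPKM), HLA-E (30.8 and 27.1) and TAP1 (15.2 and 24.5) came next. In the knockout libraries HLA-E ranged from 26.1 to 27.7 RPKM and TAP1 from 23.9 to 25. TAPBP stood at 2.47 and 4.61 RPKM and TAP2 at 1.61 and 3.13. NLRC5 (0.651 and 0.991 RPKM) and PSMB9 (0.466 and 1.03) were lowest, and their library ranges overlapped in both groups, while all other neighbours in this order had ranges apart in each group. Lengths were the union of all annotated exons, which is longer than the usual transcript. The union was 4623 bases for HLA-B, more than its RefSeq span, and 2507 bases for HLA-C, less than its span. The excess can thus differ between genes, so these levels give only a rough order. Ranges between libraries do not cover this.

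The other genes of the class I pathway were taken as a list of 40, of which 39 were tested. By the same edgeR test 8 were called higher and 5 lower, where 7.96% of all genes were called higher and 8.67% lower, with a median log2 fold change of 0.23. Without TMM the counts were 5 higher and 5 lower. Without control replicate 3, where 65.6% of all genes were called, they were 16 and 11. Without control replicate 1 or 2 they were 1 and 1 in each fit. There, 1049 of 21470 and 796 of 21462 genes were called. Without knockout replicate 1, 2 or 3 they were 0 and 0, 1 and 1, and 0 and 0. In these fits 167 of 21873, 503 of 21820 and 189 of 21736 genes were called. Directions of the 13 called genes were the same in all 12 alternatives.

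Peptide-trimming enzymes held the largest change of the list. ERAP2, an aminopeptidase that trims peptides in the endoplasmic reticulum, stood at 14.09, 13.47 and 18.97 CPM in the controls against 48.29, 41.34 and 44.66 CPM in the knockout libraries. All knockout libraries were more than 2-fold above all controls, and its log2 fold change was 1.53 (SE 0.16, edgeR adjusted p = 0.00552), called in 10 of the 12 alternatives. ERAP1, its partner enzyme, rose by a log2 fold change of 0.44 (adjusted p = 0.0361), called in 4 of the 12 alternatives and not without TMM (0.0754), and the endosomal aminopeptidase LNPEP by 0.64 (0.0172). The cytosolic peptidases BLMH and THOP1, which cut or destroy peptides before transport, fell, with log2 fold changes of -0.77 (adjusted p = 0.0105) and -0.43 (0.033). So 3 of 7 trimming genes were called higher and 2 lower, where 7.96% of all genes were called higher and 8.67% lower. TPP2 (0.44, adjusted p = 0.0807) and NPEPPS (0.06, adjusted p = 0.788) were not called.

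Among 6 chaperones of class I assembly 1 was called, where 16.6% of all genes were called. CANX, the calnexin that holds the free heavy chain, stood at 1011, 939.4 and 845.2 CPM in the controls against 1351, 1271 and 1382 CPM in the knockout libraries and rose by a log2 fold change of 0.52 (edgeR adjusted p = 0.0254). CALR, the calreticulin of the loading complex, had a log2 fold change of -0.49 (adjusted p = 0.111), and TAPBPL, a tapasin relative that edits peptides, one of 0.76 (adjusted p = 0.0636). Without control replicate 3 the log2 fold change of CALR was -0.69 (edgeR adjusted p = 2.04e-07). Of the other immunoproteasome and activator genes, PSMB8 rose from 48, 56 and 68 counts in the controls to 84, 116 and 89 counts in the knockout libraries, a log2 fold change of 0.90 (adjusted p = 0.0456), called in 4 of the 12 alternatives and not without TMM (0.058). PSMB8 and PSMB9 share 4.16% of the exon bases of PSMB9. PSMB10, the third immunoproteasome subunit, had a log2 fold change of -0.45 (adjusted p = 0.42), and none of the constitutive subunits PSMB5, PSMB6 and PSMB7 was called (0.36, -0.28 and -0.35, adjusted p = 0.123, 0.101 and 0.299).

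Of 8 factors that bind class I promoters, NFYB, a subunit of the Y-box factor, rose (log2 fold change 0.51, edgeR adjusted p = 0.0331, but 0.0551 without TMM) and RFXANK, a subunit of the X-box factor, fell (-0.54, adjusted p = 0.0355). RFX5 (0.40, adjusted p = 0.0755) and NFYA (-0.97, adjusted p = 0.137) were not called. NFYA stood at 10467 and 9397 counts in control replicates 1 and 2 and at 3371 in control replicate 3, beside 3488 to 3648 in the knockout libraries, and without control replicate 3 its log2 fold change was -1.36 (edgeR adjusted p = 1.06e-12). Of 13 genes that carry interferon and NF-κB signals to these promoters, 2 were called higher and 2 lower. Of all genes 7.96% were called higher and 8.67% lower. IRF2, a factor that binds the interferon-stimulated response element, rose by a log2 fold change of 0.68 (adjusted p = 0.0171), from 9.491 to 10.1 CPM in the controls to 15.16 to 16.67 CPM in the knockout libraries. NFKB1, the precursor of the NF-κB subunit p50, rose by 0.68 (adjusted p = 0.0216). The kinase TYK2 (-0.62, adjusted p = 0.0124) and the interferon-gamma receptor subunit IFNGR2 (-0.41, adjusted p = 0.0277) fell. IRF1, an interferon-induced activator, was not called (0.42, adjusted p = 0.181), and IFNAR1, IFNAR2, JAK1, JAK2, STAT2, IRF9, IFNGR1 and RELA were not called either.

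**Figure D4:**
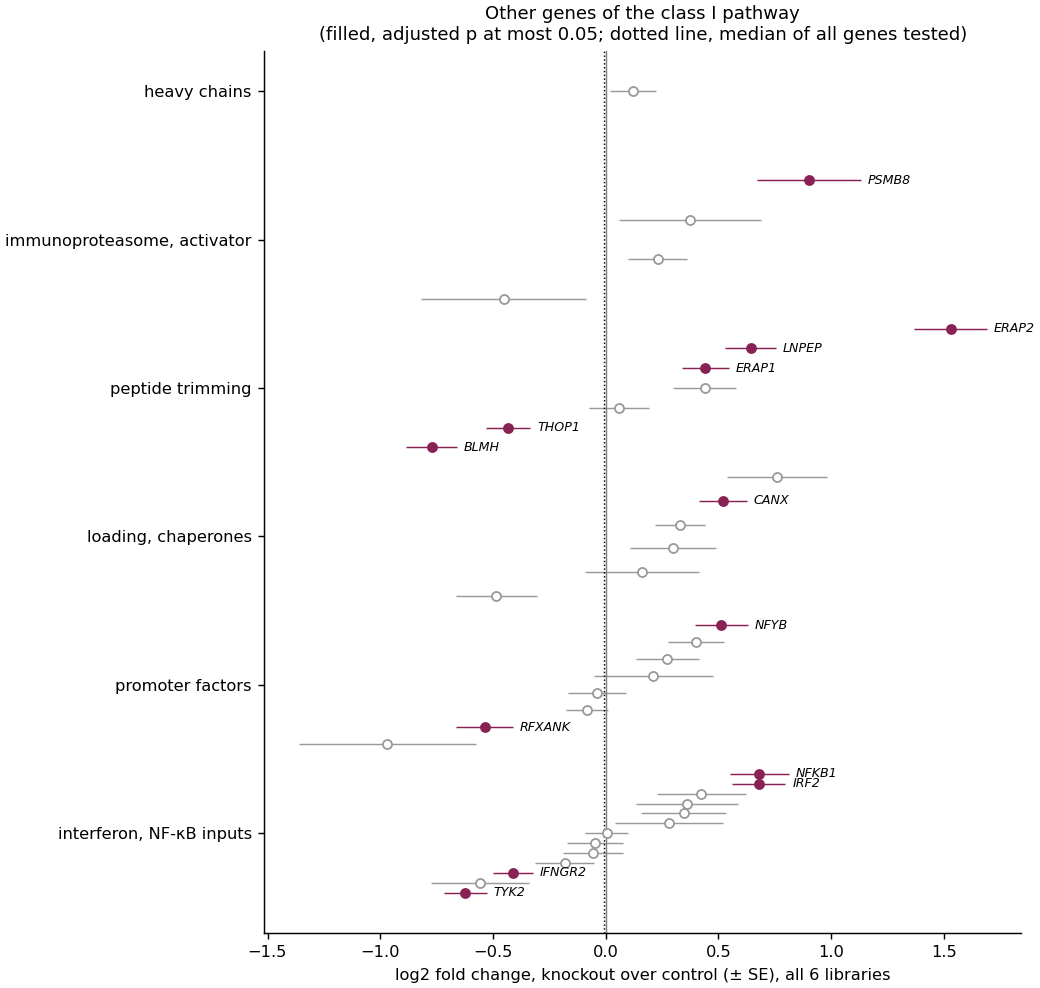
Log2 fold change of knockout over control (edgeR, all 6 libraries; bars, SE) for the 39 tested genes of the class I pathway that are not among the 9, in 6 groups by role; filled points are the 13 genes called at an adjusted p of at most 0.05. Called genes lie on both sides of 0, with 8 to the right and 5 to the left.

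The genes whose centred log2 CPM over the 6 libraries lay nearest to the mean profile of the 9 members were ADCK5, RPL11, NAPRT, THG1L and RPL21P28, at Euclidean distances of 0.0664 to 0.0942. ADCK5 stood at 8.537, 9.202 and 9.439 CPM in the controls against 13.39, 13.55 and 12.98 CPM in the knockout libraries. The mean profile hides the opposite courses of B2M and the heavy chains, so the same measure was taken for subsets, which were chosen after the values were seen. Nearest to the heavy chains were LEF1-AS1, NT5C3A, POLR1C, OBSL1 and TEX261, and nearest to TAP1, TAP2 and TAPBP were DDT, SNORD46, SLC39A8, JUN and AMIGO2. JUN, a subunit of the AP-1 factor, stood at 335.6, 336 and 340.6 CPM in the controls against 611.1, 633.9 and 599.1 CPM in the knockout libraries. Likeness over 6 libraries in 2 groups is a description of these libraries.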

How the data were processed

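RNA was measured by poly(A)-selected, strand-specific RNA-seq in 3 control and 3 FAM60A-knockout libraries. The authors deposited whole-number read counts per Ensembl gene, without normalization. The submitters' processing notes name STAR 2.7.10b, featureCounts 2.0.0 and hg38, the study's methods name Salmon on hg38, and the extract protocol names hg19. The annotation, the use of strand and the handling of reads that match several genes are not given in the sources used here, and each could move reads between the heavy chain paralogs. Symbols were matched through GENCODE 44 for 60878 of 62754 genes. Every column belonged to a sample.

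Members and gene lists were chosen with earlier results of these data known. Counts were tested with edgeR 4.0.16 in R 4.3.3: TMM, filterByExpr with a minimum count of 10, glmQLFit with the two-sided glmQLFTest (quasi-likelihood) and Benjamini-Hochberg adjustment over 20992 genes, called at an adjusted p of at most 0.05. All 9 members passed the filter. The fit was tested on simulated data. Alternatives were DESeq2 1.42.0, limma-voom (limma 3.58.1), library sizes without TMM, no filter, at least 10 counts in every library, leaving out each library, and the replicate number as a block. Named genes were the 9 members, SINHCAF, list genes that were called, and the 5 genes outside the lists nearest to the members' mean profile of centred log2 CPM (prior count 2). Other list genes, and those nearest to subsets of the members, were named after their values were seen. Some genes of the pathway are not reported here and were left out of the lists. Promoter windows and coordinates came from RefSeq (GRCh38.p14). Figures were drawn with matplotlib.

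Total counts were 88361827 to 93346824 per library. Nothing in the labels says that the replicates came from separate cultures. The p-values therefore set the group difference against a spread estimated from these libraries, which may be technical.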

Additional observations from a re-analysis of the deposited data

How the results depend on the processing

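In all 12 alternatives B2M, TAP1, TAP2, TAPBP, PSMB9 and NLRC5 had a positive and HLA-B, HLA-C and HLA-E a negative log2 fold change. TAPBP was called in 9 of the 12, B2M and TAP1 in 7 and TAP2 in 6, and the other 5 members only without control replicate 3. The edgeR adjusted p of TAPBP ranged over the alternatives up to 0.0565, that of HLA-C up to 0.978. Library sizes without TMM shifted the median log2 fold change of all genes by -0.109. Of all genes, 3491 were called, 5581 with DESeq2 and 167 to 14221 when 1 library was left out. With at least a 2-fold change there were 1482 calls, and 156 to 4965 when 1 library was left out. Of the 9 members 4 were called, and 0 to 9 when 1 library was left out. The number was 1, 3 and 9 without control replicate 1, 2 or 3, where 1049, 796 and 14221 of all genes were called. It was 0, 1 and 0 without knockout replicate 1, 2 or 3, where 167, 503 and 189 of all genes were called. In each of these last 3 fits 4 members had an unadjusted p under 0.05. So did 4954 of 21873, 5528 of 21820 and 5000 of 21736 genes tested. Of the other pathway genes 13 were called, 7 without a filter and 0 to 27 when 1 library was left out. Fits with fewer libraries have fewer residual degrees of freedom, and without control replicate 3 the remaining libraries are closer to each other within groups.

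Replicate numbers are shared between the groups but did not pair the samples: the correlations of same-numbered deviations from the group means were 0.0101, 0.0306 and -0.0362. Adding that number as a block to the edgeR fit gave 407 called genes, 334 of them with at least a 2-fold change. The 407 held 2 pathway genes and 0 members. In that fit 7 members had an unadjusted p under 0.05, as did 6388 of the 20992 genes tested. DESeq2 without the block called 4 members. The cause of the other differences was not tested.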

Other observations

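Class II antigen presentation genes, which are usually limited to antigen-presenting cells and need the transactivator CIITA, were measured beside the class I genes. HLA-DRA, the alpha chain of HLA-DR, had 7, 6 and 34 counts in the controls against 169, 131 and 121 counts in the knockout libraries, a log2 fold change of 3.31 (SE 0.67, edgeR adjusted p = 0.0245; 4.53 without control replicate 3). It was called in 5 of the 12 alternatives and was not tested where at least 10 counts in every library were required. Its edgeR adjusted p was 0.0707 and 0.0721 without control replicate 1 or 2 and 0.115, 0.0891 and 0.0981 without knockout replicate 1, 2 or 3. Of 10 class II genes 1 was called higher and 0 lower with all 6 libraries, where 7.96% of all genes were called higher and 8.67% lower. Without control replicate 3, where 65.6% of all genes were called, 7 were called higher and 1 lower. HLA-DRB1 (log2 fold change 0.88, adjusted p = 0.107), HLA-DOA (1.20, adjusted p = 0.058), HLA-DOB (1.40, adjusted p = 0.154) and HLA-DMB (-0.58, adjusted p = 0.0741) were not called with all 6. Neither were HLA-DPA1 (0.27, edgeR adjusted p = 0.739) and HLA-DPB1 (0.35, adjusted p = 0.252). For these, control replicate 3 stood at 55.03 and 44.19 CPM, above the knockout means of 34.6 and 43.3 CPM. CIITA had 24 to 71 counts in the controls against 44 to 87 in the knockout libraries, and CD74, the invariant chain, 35 to 68 and 20 to 24. The median log2 fold change of the 10 genes was 0.78.

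Of 13 class I-like proteins and ligands of the NKG2D receptor of natural killer cells, 12 were tested. Among these 1 was called higher and 2 lower, where 7.96% of all genes were called higher and 8.67% lower. PROCR, the endothelial protein C receptor, rose by a log2 fold change of 0.91 (SE 0.10, edgeR adjusted p = 0.00582). ULBP1, an NKG2D ligand, and CD1D, which presents lipids, fell, with log2 fold changes of -0.87 (adjusted p = 0.0188) and -1.32 (adjusted p = 0.0287). The edgeR adjusted p of ULBP1 was 0.0561 without control replicate 1 and 0.0905 to 0.116 without any 1 knockout library, that of CD1D 0.0712 and 0.0903 without control replicate 1 or 2 and 0.0885 to 0.116 without any 1 knockout library, and that of PROCR 0.0542 and 0.0514 without knockout replicate 1 or 3. MICA, another NKG2D ligand, had 7350, 8092 and 2304 counts in the controls against 1629, 1686 and 1896 in the knockout libraries, and the log2 fold change of -1.61 missed the threshold (adjusted p = 0.0538), and was -2.03 without control replicate 3 (adjusted p = 5.01e-15). The NKG2D ligands MICB, ULBP2, ULBP3 and RAET1G were not called (log2 fold changes -0.29, -0.68, -0.70 and -0.73, edgeR adjusted p = 0.597, 0.205, 0.132 and 0.293). RAET1L was the only tested NKG2D ligand of the list that lay the other way, with 32, 46 and 7 control counts against 119, 133 and 93 knockout counts. Its rise also missed the threshold (log2 fold change 2.17, edgeR adjusted p = 0.0534), and was 1.68 without control replicate 3 (adjusted p = 1.12e-06). HLA-H, a class I pseudogene, had 474 and 463 counts in control replicates 1 and 2, 50 in control replicate 3 and 288 to 340 in the knockout libraries.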
